A study of Arabidopsis thaliana with 24 samples.

Results

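A set of 100 Arabidopsis probe sets, of 22746 non-control probe sets on the array, was chosen because their signal was higher at 48 h after either of the synthetic elicitors DCA and INA in wild-type Col-0, and also higher after DCA in the mutant npr1-3. Each of these 3 changes was at least 1 on the log2 scale (2-fold) between the means of 3 arrays, and the mean log2 signal over all 24 arrays was at least 6.2, a signal of 73.5. The 48 h values therefore describe how the members were picked and were not tested. The results below concern the same plants' counterparts harvested at 6 d, whose arrays entered the choice only through the mean over 24 arrays. Some members with a mean close to 6.2 reached it only with their high INA arrays at 6 d counted. Among them are AT3G25610 (6.28), AT1G30700 (6.25) and AT4G11900 (6.21). Their INA values at 6 d are therefore not free of the choice, and they are kept in the counts. Of the 100 members, 44 have exactly 1 gene in the platform annotation (43 different genes), 3 have several and 53 have no entry there, so 53 are unnamed here and not without a gene.

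Total RNA came from the complete shoots (labelled whole aerial tissue) of plants 2 weeks old, grown on soil in days of 14 h light and 10 h dark, and each sample was hybridized to 1 Affymetrix ATH1 array. The spray held 100 µM of DCA, which is 3,5-Dichloroanthranilic acid, or 100 µM of INA, which is 2,6-Dichloroisonicotinic acid; the mock spray was 0.002% DMSO in water. The 6 Col-0 groups were mock, DCA and INA at 48 h and the same treatments at 6 d, and the 2 groups of npr1-3 were mock and DCA at 48 h. Each of the 8 groups had 3 biological replicates, described by the labels as independent. INA in npr1-3 and npr1-3 at 6 d are not analysed here, and all npr1-3 plants carry the single allele npr1-3.

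Salicylic acid (SA) is the hormone that builds up in plant tissue attacked by biotrophic pathogens and switches on local and systemic resistance. NPR1 is an SA receptor and transcriptional coactivator that works with TGA transcription factors, and npr1 mutants fail to express many SA-induced genes. INA is a long-used functional analogue of SA that protects plants through NPR1, and DCA is another small chlorinated aromatic acid found as an inducer of defence genes. Both compounds carry a carboxylic acid and a pair of chlorine atoms; the ring of DCA is a benzene with an amino group, and that of INA is a pyridine. Genes induced early in defence include receptor kinases, TIR-domain immune receptors that act in pathogen recognition, secreted hydrolases, and enzymes that make or modify signalling molecules.

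The arrays had been scaled to a common trimmed mean of 500.1, and the median signal of an array lay between 115 and 148. The leaf gene RCA (Rubisco activase) read between 17433 and 37164 on all 24 arrays, so a leaf transcript was abundant in each sample. The guard cell genes FAMA (between 102 and 218) and GC1 (between 1633 and 6228) were the only other tissue markers with a probe set in the annotation, so root, vascular and flower markers could not be checked. In bulk tissue a change in the share of a cell type and a change in RNA per cell cannot be told apart. At 6 d, replicate 1 stood apart within the DCA and the INA group. On the DCA replicate 1 array 14% of the 13685 tested probe sets, and on the INA replicate 1 array 16.5%, lay over 2-fold from the mean of the other replicates, against 1.18% to 2.48% on the mock arrays. The total numbers of members and of all probe sets called are therefore given with and without all 6 d replicate 1 arrays. Counts by overlap, by size of change, by role group and by annotation are given with all arrays only. At 48 h replicates 1 and 2 stood apart in every group but Col-0 DCA (10.1% to 14%), against 0.621% to 3.49% on the other 48 h arrays.

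At 48 h, where the members were chosen, their median log2 change was 1.82 with DCA and 2.27 with INA in Col-0, and 1.44 with DCA in npr1-3. The npr1-3 change was the smallest of the 3 for 69 members, the Col-0 DCA change for 23 and the Col-0 INA change for 8. The set was proposed as independent of NPR1, but its levels differed between the genotypes. In mock plants 92 of 100 members had a lower mean log2 signal in npr1-3 than in Col-0 (52.2% of all tested probe sets), with a median difference of -0.71. After DCA 93 of 100 were lower in npr1-3 (45.7% of all), with a median difference of -1.16, and 59 were lower by 2-fold or more (7.07% of all). The DCA response itself was smaller in npr1-3 for 72 members (43.6% of all), with a median difference of -0.36. The npr1-3 DCA mean lay above the Col-0 mock mean for 85 members (58.4% of all), and all 3 npr1-3 DCA arrays lay above all 3 Col-0 mock arrays for 28 (7.35% of all). The 189 probe sets raised by both elicitors in Col-0 but by less than 2-fold in npr1-3 had 138 lower in npr1-3 mock (median -0.33) and 186 lower in npr1-3 DCA (median -1.23). All these comparisons share arrays with the choice of members, so they are descriptions that carry no test. The choice favours low npr1-3 mock and high Col-0 DCA values, which act toward lower levels in npr1-3. It also favours low Col-0 mock and high npr1-3 DCA values, which act the other way.

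**Figure D1:**
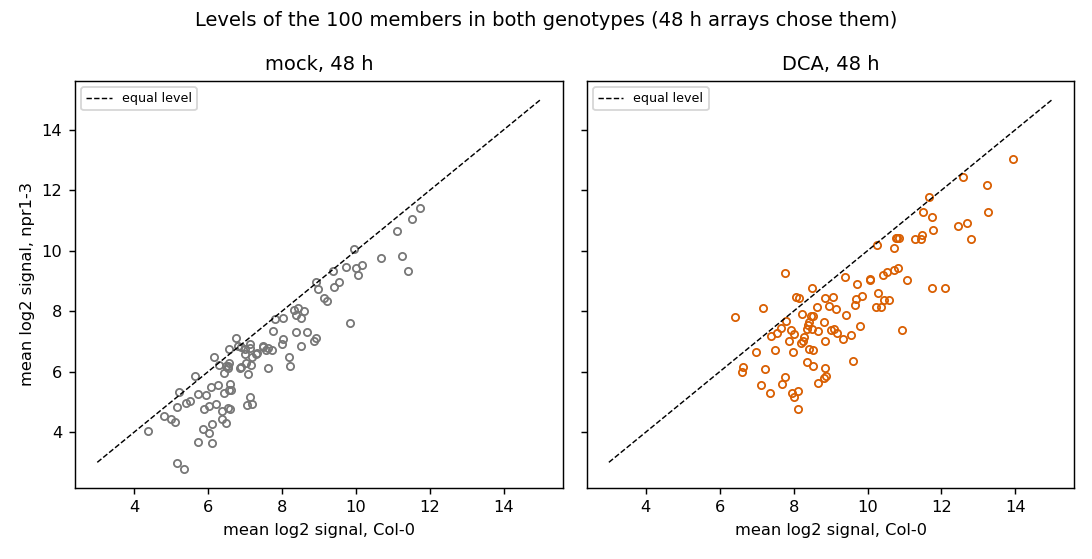
Mean log2 signal of each of the 100 members in npr1-3 (vertical) against Col-0 (horizontal) at 48 h after mock (left) or DCA (right); each circle is 1 probe set and the mean of 3 arrays per genotype, and the dashed line marks equal level. After mock 92 circles and after DCA 93 circles lie below the line.

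The npr1-3 DCA arrays differed from each other on these genes. The median log2 signal of the members was 7.32, 8.62 and 7.90 on replicates 1 to 3 of npr1-3 DCA, and 6.84, 6.24 and 6.45 on those of npr1-3 mock. Replicate 2 after DCA was thus the highest of the mutant arrays, and the order is seen on single genes. For the TIR-domain gene AT1G57630 the npr1-3 DCA signals were 15.8, 428 and 177, and the npr1-3 mock signals were 78.4, 10.5 and 63.1, so replicate 1 after DCA lay below 2 of the mock arrays. For 68 of the 100 members all 3 npr1-3 DCA arrays lay above all 3 npr1-3 mock arrays (6.93% of all tested), a contrast that the rule used. With npr1-3 DCA replicate 2 left out of the choice, 70 probe sets met the rule, 61 of them among the 100. Without npr1-3 mock replicate 2, 72 of the 100 still met it, and without Col-0 mock replicate 2, 87 did. Without any other single 48 h array 90 or more did.

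**Figure D2:**
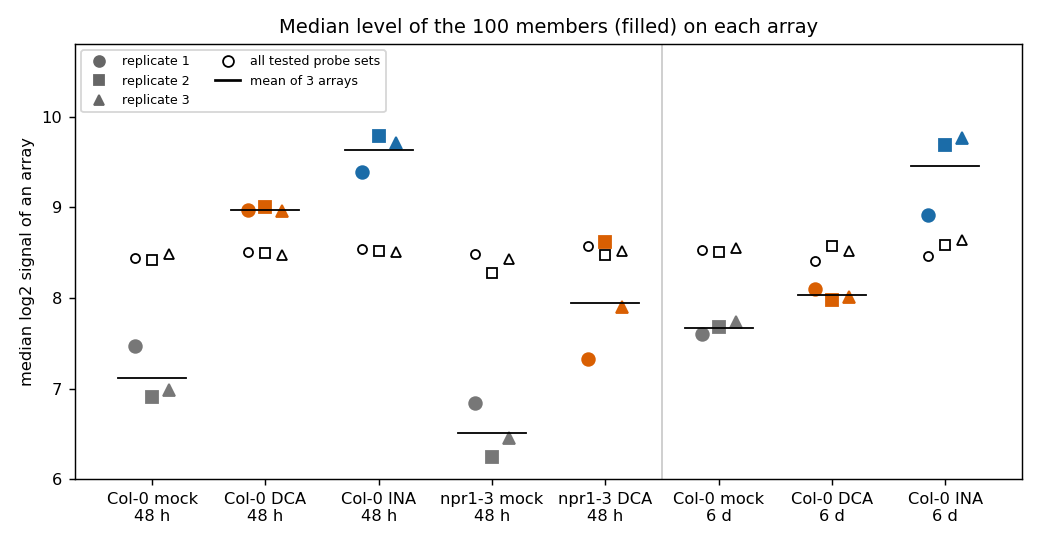
Median log2 signal of the 100 members (filled symbols, coloured by treatment) and of all tested probe sets (open symbols) on each of the 24 arrays; symbol shape gives the replicate and the black line the mean of 3 arrays. At 6 d the INA arrays lie highest, replicate 1 below the other INA replicates, and the DCA arrays lie between mock and INA.

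The genes nearest the threshold are given among probe sets with 1 gene only. Closest inside it was AT1G03370 (a C2- and GRAM-domain protein), with a smallest 48 h change of 1.01. Next were AT1G76970 (an ENTH/VHS-domain protein of vesicle sorting) with 1.05 and AT3G60420 (phosphoglycerate mutase family) with 1.06. Just outside were AT1G74300 with 0.98, AT3G09490 with 0.97 and AT5G46230 with 0.97. At 6 d those inside had changes of 0.74, 1.76 and 0.89 with INA and of 0.13, 0.39 and -0.17 with DCA. Those outside had 0.95, 1.96 and 1.45 with INA and 0.23, 1.29 and 0.49 with DCA.

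Among the members with 1 gene, those with the highest smallest-of-3 change at 48 h included AT5G58120, AT5G44820, AT4G39670, AT3G48640 and AT1G10340. AT5G58120, a TIR-type nucleotide-binding leucine-rich repeat (NLR) receptor gene, had log2 changes of 3.50 (DCA), 2.51 (INA) and 2.65 (DCA in npr1-3). In npr1-3 it read 2.64, 53.5 and 3.40 in mock and 30.9, 55.4 and 69.8 with DCA. The npr1-3 change thus rests on mock replicates 1 and 3, which were near the floor, and the arrays overlapped. AT5G44820, of the nucleotide-diphospho-sugar transferase family, is measured by 2 probe sets, whose npr1-3 changes were 2.53 and 1.64. The probe set with 2.53 read 6.61, 6.66 and 7.20 in npr1-3 mock and 8.21, 82.5 and 90.5 with DCA, so its mock values were near the floor. AT4G39670, a glycolipid transfer protein related to ACD11, had a larger change with DCA in npr1-3 (2.61) than in Col-0 (1.96). In npr1-3 it read 104, 12.7 and 16.8 in mock and 123, 295 and 139 with DCA, so mock replicates 2 and 3 were low. The DCA change was larger in npr1-3 than in Col-0 for 28 of the 100 members (56.4% of all tested probe sets). Among them were also AT1G76960 (2.19, against 1.57 in Col-0) and AT3G48640 (1.86, against 1.74), genes with no role given here. AT3G48640 read 18.4, 11.7 and 17.9 in npr1-3 mock and 39.0, 104 and 45.3 with DCA, so its mock values were low. AT1G76960 read 68.5, 252 and 91.2 in npr1-3 mock and 93.4, 2117 and 752 with DCA, so these arrays overlapped. The differences between genotypes were not tested. AT1G10340 (an ankyrin-repeat membrane protein), AT1G66880 and AT5G25440 (protein kinases) and the calmodulin-like gene CaBP22 followed, each with all 3 changes above 1.6.

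At 6 d the question was which members were still raised at the later harvest. With INA, 55 of 100 were higher than in mock at an adjusted p under 0.05 in limma (Benjamini-Hochberg over 13685 probe sets), 0 were lower and 45 were not called, whereas 1.56% of all tested probe sets were called higher and 0.278% lower. The median log2 change of the members was 1.66, and that of all tested probe sets was -0.00. The estimate was positive for 97 members and at least 1 for 76, against 3.79% of all tested probe sets. All 3 INA arrays lay above all 3 mock arrays for 81 members, against 12.8% of all. Folds of the called members ran from 1.99 to 25.5, with a median of 4.71. Of the 45 members not called, 22 had an estimate of at least 1, so a missed call does not mean a level equal to mock.

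With DCA at 6 d, 0 of 100 members were called by limma, and 0 of all 13685 probe sets were (0% called). The lowest adjusted p was 0.93 among the members and 0.701 among all. At an unadjusted p under 0.05 there were 21 members and 445 probe sets in all. The estimates still leaned upward: the median log2 change was 0.42 for the members and -0.04 for all tested probe sets, 85 members were positive, and 18 reached a log2 change of 1, against 1.31% of all. All 3 DCA arrays lay above all 3 mock arrays for 33 members, against 7.3% of all. The median 95% interval of a member reached 0.90 to either side, and for 80 members its upper end stayed above 1, so a 2-fold rise was excluded by the interval for only 20.

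**Figure D3:**
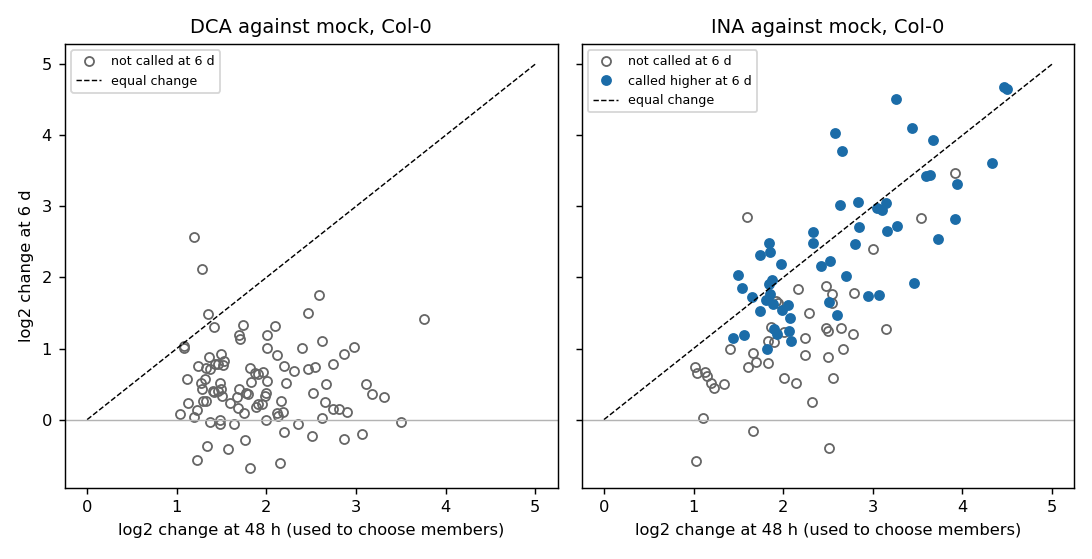
Log2 change at 6 d (vertical) against that at 48 h (horizontal, used to choose the members) for DCA (left) and INA (right) in Col-0; each circle is 1 of the 100 members, filled circles were called at 6 d by limma, and the dashed line marks an equal change at both times. With INA 21 circles lie above the line and 55 are filled; with DCA 3 lie above it and 0 are filled.

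The median ratio of the 6 d to the 48 h log2 change was 73.8% with INA and 24.3% with DCA. The rule required the 48 h changes to be at least 1, which raises them and lowers these ratios by construction. Across the 100 members the 48 h and 6 d changes had a Pearson's r of 0.73 and a Spearman's rho of 0.67 with INA, and of -0.05 and -0.07 with DCA. These are descriptions that draw on values the rule used, over genes that are not independent replicates, and no test was made of them. The mock level of the members itself differed between harvests: 74 of 100 had a higher mean log2 signal in mock at 6 d than in mock at 48 h, by a median of 0.44, against 58% of all tested probe sets and a median of 0.07.

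The direct comparison of both compounds at the same dose and time was 1 pair, DCA against INA at 6 d. Of the 100 members 13 were lower with DCA and 0 higher, against 0.197% and 0.00731% of all tested probe sets. The median difference in log2 change, DCA minus INA, was -1.25 for the members and -0.03 for all. The estimate was negative for 97 members and at most -1 for 63 (1.56% of all), and all 3 DCA arrays lay below all 3 INA arrays for 68 (6.77% of all). The 13 called members were 2.21- to 12.4-fold lower with DCA, and all 13 were also called in INA against mock; both comparisons use the INA arrays. The call count rests on few arrays. It was 0 without INA replicate 2, 0 without INA replicate 3, 1 without DCA replicate 2 and 2 without DCA replicate 3, but 34 without INA replicate 1 and 19 without all 6 d replicate 1 arrays, 11 of them among the 13.

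The INA count moved less. It was 36 without INA replicate 2, 35 without INA replicate 3, 37 to 45 without 1 mock array, and 47 (42 of them among the 55) without all 6 d replicate 1 arrays. Without npr1-3 DCA replicate 2 in the choice of members, 32 of the 61 members that remained were called with INA and 5 of 61 were lower with DCA than with INA. Without npr1-3 mock replicate 2 in the choice, 40 of the 72 members that remained were called with INA. Of the 189 probe sets with an npr1-3 change under 1, 51 were called higher with INA at 6 d, with a median log2 change of 0.87, and 0 with DCA (limma; 23 at an unadjusted p under 0.05), with a median of 0.23. The difference between these sets was not tested.

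The 44 members with 1 gene were grouped by role. Of all 44, 22 were called higher with INA at 6 d (1.56% of all tested probe sets), and the counts of the role groups below are to be read against these shares; no group was tested against the others. Of the genes near SA and NPR1 signalling, 2 of 5 were called with INA at 6 d. GRX480, a glutaredoxin that binds TGA factors and represses jasmonate-responsive genes, read 353, 319 and 433 in mock, 2342, 312 and 308 with DCA, and 2955, 909 and 897 with INA. All INA arrays were above all mock arrays, but with DCA only replicate 1 was high, at nearly the level seen on the INA replicate 1 array. The other DCA replicates lay just below the mock range. Its log2 change was 1.88 ± 0.66 (SE, limma adjusted p = 0.178) with INA and 0.74 ± 0.66 (adjusted p = 0.93) with DCA. Without the replicate 1 arrays these were 1.28 and -0.26. CaBP22, which encodes a calmodulin-like calcium-binding protein, read 7768, 8788 and 11340 in mock, 7238, 10896 and 12238 with DCA, and 11898, 16378 and 20978 with INA. The INA arrays lay above mock and the DCA arrays overlapped with mock; the log2 changes were 0.80 ± 0.30 (adjusted p = 0.197) and 0.11 ± 0.30 (adjusted p = 0.971).

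SARD4 (AT5G52810) encodes the reductase of the last step in the synthesis of pipecolic acid, a signal of systemic acquired resistance. It read 314, 201 and 332 in mock, 167, 227 and 257 with DCA, and 151, 749 and 621 with INA. INA replicate 1 was below every mock array while the other INA replicates were above all of them, and the groups overlapped. The log2 change with INA was 0.58 ± 0.42 (limma adjusted p = 0.54), and 1.40 without the replicate 1 arrays (adjusted p = 0.0505); without INA replicate 1 alone it was called (adjusted p = 0.0322). AT1G78410, a VQ-motif gene of a family that binds WRKY factors, and AT3G48080, a near copy of EDS1, were called with INA. Signal of the tandem copy of AT3G48080 may reach its probe set, and that share was not tested. AT3G48080 read 50.2, 49.7 and 77.7 in mock, 82.9, 98.9 and 107 with DCA, and 156, 233 and 357 with INA. The 3 groups did not overlap and lay in that order, with log2 changes against mock of 2.02 ± 0.38 with INA (limma adjusted p = 0.00572) and 0.72 ± 0.38 with DCA (adjusted p = 0.93).

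GRX480, CaBP22 and SARD4 are also the whole measured part of a list of 20 SA response genes. All 3 are members, against 100 of all 13685 tested probe sets. The 48 h rule set this membership, and the other genes on the list could not be read. Of the 185 genes on 16 such lists, 34 have a probe set of their own in the annotation and 26 were tested. Besides the SA response genes, 3 of 4 calmodulin-like genes were called higher with INA at 6 d (CML41, CML46 and CML47, with log2 changes of 1.93, 1.85 and 3.06), and CML38 was not called (-1.06). Higher with INA were also 1 of 4 genes of ER folding and secretion (SEC61B, 1.87) and 1 of 4 of detoxification (UGT87A2, 1.85), and 1 of 3 jasmonate and ethylene genes was lower (THI2.2, -1.61). The single measured gene of SA synthesis and the EDS1 pathway and both WRKY genes were not called.

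None of the 4 TIR-domain genes was called at 6 d by limma in the fit of all 24 arrays; in a fit of the 9 arrays at 6 d alone AT1G57630 was called with INA (adjusted p = 0.0318). TIR domains cleave NAD+ to make signals read by EDS1 complexes. AT5G58120, the member with the second highest DCA change among the 44 at 48 h, read 334, 343 and 304 in mock at 6 d, 244, 451 and 294 with DCA, and 114, 409 and 325 with INA. All 3 groups overlapped, and INA replicate 1 was the lowest array. At 48 h its mock signals had been 22.3, 55.9 and 36.6, so the 6 d mock arrays were near the level of the 48 h DCA arrays (416, 389 and 410). Its log2 change at 6 d was -0.40 ± 0.78 with INA (limma adjusted p = 0.854) and -0.03 ± 0.78 with DCA (adjusted p = 0.998). AT3G04210, which encodes a TIR and nucleotide-binding protein, also had higher mock signals at 6 d than at 48 h. It read 145, 959 and 490 at 48 h and 1793, 1909 and 1597 at 6 d.

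At 6 d AT3G04210 read 733, 2318 and 2137 with DCA and 649, 2352 and 2562 with INA. Replicate 1 was low in both elicitor groups and the other replicates were above all mock arrays, giving -0.20 ± 0.76 with DCA (limma adjusted p = 0.98) and -0.16 ± 0.76 with INA (adjusted p = 0.943), or 0.35 and 0.49 without the replicate 1 arrays. AT1G57630 read 16.5, 53.2 and 64.6 in mock, 313, 124 and 55.7 with DCA, and 369, 567 and 367 with INA. All INA arrays were above all mock arrays, DCA replicate 3 was within the mock range, and the log2 changes of 3.47 ± 1.06 (adjusted p = 0.106) and 1.75 ± 1.06 (adjusted p = 0.93) carried the largest standard error of the 44. Without the replicate 1 arrays they were 2.96 and 0.50. AT2G20142, another TIR-domain gene, had 1.50 ± 0.60 with INA (adjusted p = 0.24).

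Of 6 protein kinase genes, 3 were called with INA and 0 with DCA. AT1G66880, a receptor-like kinase gene, read 22.3, 79.3 and 118 in mock, 191, 156 and 161 with DCA, and 495, 628 and 866 with INA. The 3 groups did not overlap. The log2 change was 3.44 ± 0.51 with INA (10.9-fold, limma adjusted p = 0.000669) and 1.51 ± 0.51 with DCA (2.84-fold, adjusted p = 0.93), and the difference of DCA from INA was -1.94 (adjusted p = 0.16). Mock replicate 1 was the lowest array, and without the replicate 1 arrays the changes were 2.93 with INA (adjusted p = 0.00559) and 0.71 with DCA. AT5G25440 and AT5G39020 (a malectin-type receptor kinase gene) rose with INA by 1.25 ± 0.28 (adjusted p = 0.0211) and 1.18 ± 0.20 (adjusted p = 0.00206). The AT5G25440 call was lost without INA replicate 2 or 3, without mock replicate 2 or 3, and in a fit of the 9 arrays at 6 d alone. AT1G69730, of the wall-associated kinase-like family, read 187, 217 and 279 in mock, 191, 169 and 193 with DCA, and 196, 292 and 582 with INA. Its groups overlapped, with log2 changes of 0.52 ± 0.58 and -0.29 ± 0.58. AT4G11900 (S-locus lectin kinase) and AT5G47070 (PBL19, a receptor-like cytoplasmic kinase) had 0.74 and 0.50 with INA and were not called.

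**Figure D4:**
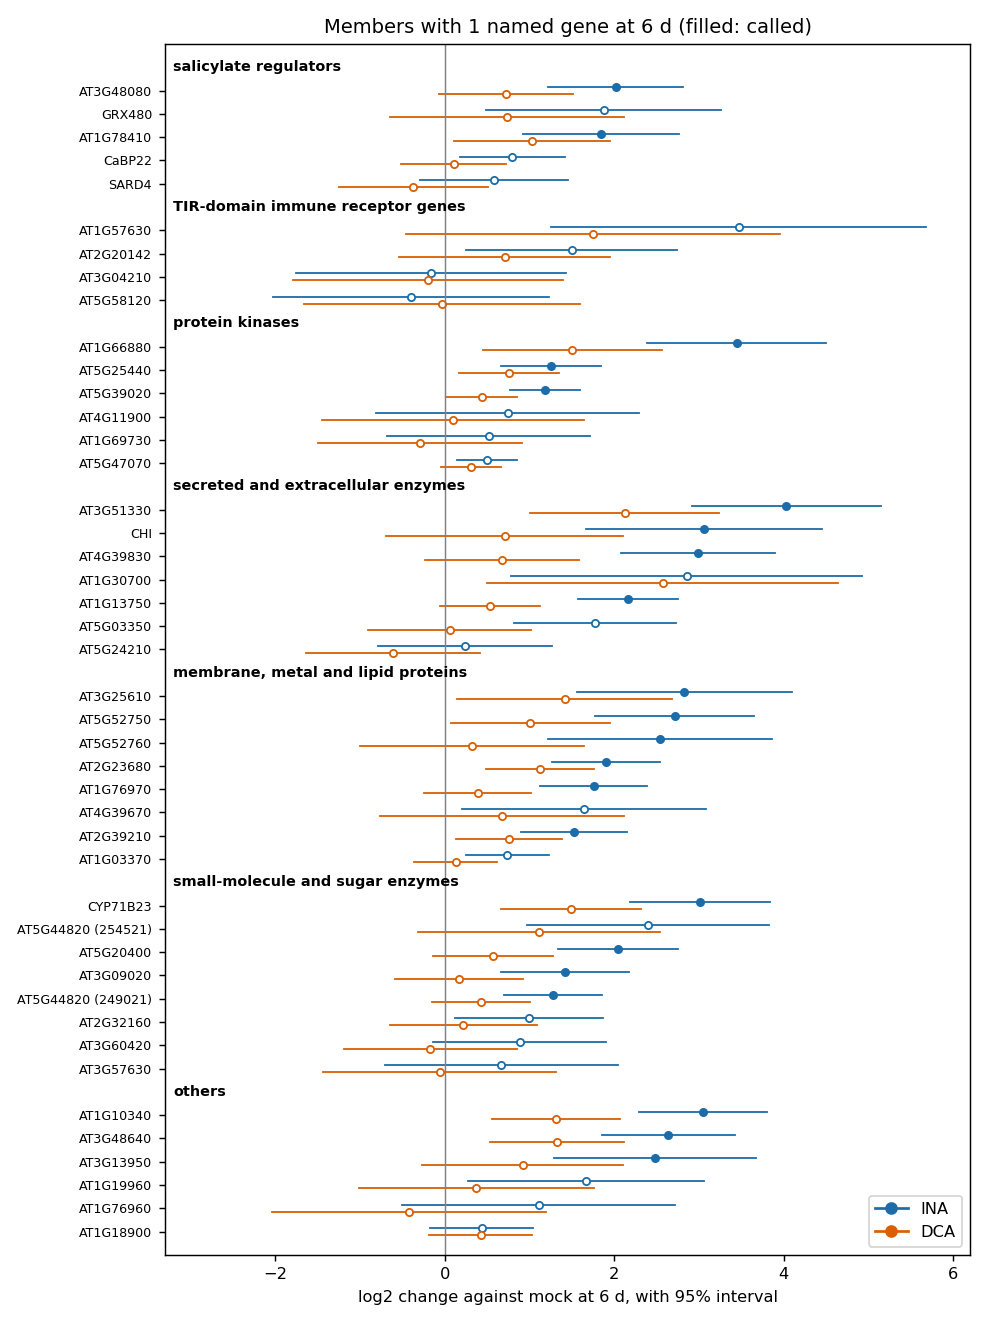
Log2 change against mock at 6 d with its 95% interval from limma for the 44 members with 1 gene, grouped by role; blue is INA, orange is DCA, and filled circles were called. With INA 22 circles are filled and with DCA 0; the INA estimate lies to the right of the DCA estimate in all but 1 gene, AT5G58120. The 2 probe sets of AT5G44820 are told apart by their numbers.

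The group of secreted and extracellular enzymes has 7 genes and includes the lectin-like AT5G03350, which is not an enzyme gene. Where the products are located was not tested. Of the 7, 4 were called with INA, among them the largest INA change of the 44. AT3G51330, an aspartyl protease gene, read 24.2, 10.9 and 13.0 in mock, 66.3, 73.3 and 58.5 with DCA, and 97.4, 365 and 423 with INA. All DCA arrays were above mock and below INA, and INA replicate 1 was the lowest of its group. The log2 change was 4.03 ± 0.54 with INA (16.3-fold, limma adjusted p = 0.000199) and 2.12 ± 0.54 with DCA (4.35-fold, adjusted p = 0.93), and DCA minus INA was -1.91 (95% interval -3.02 to -0.79, adjusted p = 0.21). CHI (AT2G43570), a putative chitinase gene, read 179, 209 and 142 in mock, 195, 357 and 330 with DCA, and 456, 2193 and 3088 with INA. INA was above both other groups, with replicate 1 far below its fellows, and DCA replicate 1 was within the mock range. The INA change was 3.06 ± 0.67 (adjusted p = 0.016), and this call was lost in 5 of the 6 fits that left out 1 array.

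AT4G39830, of the cupredoxin family that includes ascorbate oxidase, read 65.6, 50.2 and 74.3 in mock, 177, 74.2 and 76.2 with DCA, and 360, 690 and 488 with INA. Only DCA replicate 1 stood clearly above mock, and all INA arrays lay above all DCA arrays. It rose with INA by 2.98 ± 0.44 (limma adjusted p = 0.000626) and was lower with DCA than with INA by 4.94-fold (-2.31 ± 0.44, adjusted p = 0.0265). AT1G13750, a purple acid phosphatase gene, read 103, 99.7 and 138 in mock, 128, 164 and 206 with DCA, and 327, 526 and 743 with INA. DCA overlapped with mock and not with INA. Its changes were 2.16 ± 0.28 with INA (adjusted p = 0.000167) and 0.54 ± 0.28 with DCA (adjusted p = 0.93), with -1.63 ± 0.28 between DCA and INA (adjusted p = 0.012). Both calls of DCA below INA were lost without DCA replicate 2, without INA replicate 2 or 3 and in a fit of the 6 d arrays alone, and that of AT4G39830 also without DCA replicate 3.

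The berberine-bridge-like oxidase gene AT1G30700 had the largest DCA change of the 44 at 6 d. It read 12.6, 13.2 and 48.3 in mock, 91.5, 144 and 127 with DCA, and 92.0, 199 and 165 with INA. Both elicitor groups were above mock and overlapped each other, with 2.57 ± 0.99 (limma adjusted p = 0.93) and 2.85 ± 0.99 (adjusted p = 0.166, and 0.0325 in a fit of the 6 d arrays alone). Its mean over 24 arrays (6.25) reached 6.2 only with the INA arrays at 6 d counted, so its INA change is not free of the choice. At 48 h AT1G30700 read 259, 4.46 and 44.4 in Col-0 mock, 98.1, 97.7 and 64.4 with DCA, and 186, 75.9 and 100 with INA. Mock replicate 1 was above all these elicitor arrays, so its 48 h rise rests on the low mock replicates. AT5G03350, a legume-lectin-like gene, read 3238, 3217 and 4526 in mock, 2415, 4625 and 4759 with DCA, and 8827, 13670 and 15600 with INA. The INA arrays were 3.42-fold higher on average and did not overlap with the others, but its adjusted p was 0.0518. DCA minus INA was -1.72 ± 0.46 (limma adjusted p = 0.172), and with the replicate number as a block, which pairs arrays by number, it was called (adjusted p = 0.00915). The lipase-like alpha/beta hydrolase gene AT5G24210 read 1357, 1560 and 1151 in mock, 345, 1403 and 1408 with DCA, and 657, 2488 and 2472 with INA. Replicate 1 was the lowest array with either compound, and the changes were 0.24 ± 0.49 with INA and -0.61 ± 0.49 with DCA, or 0.89 and 0.07 without the replicate 1 arrays.

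**Figure D5:**
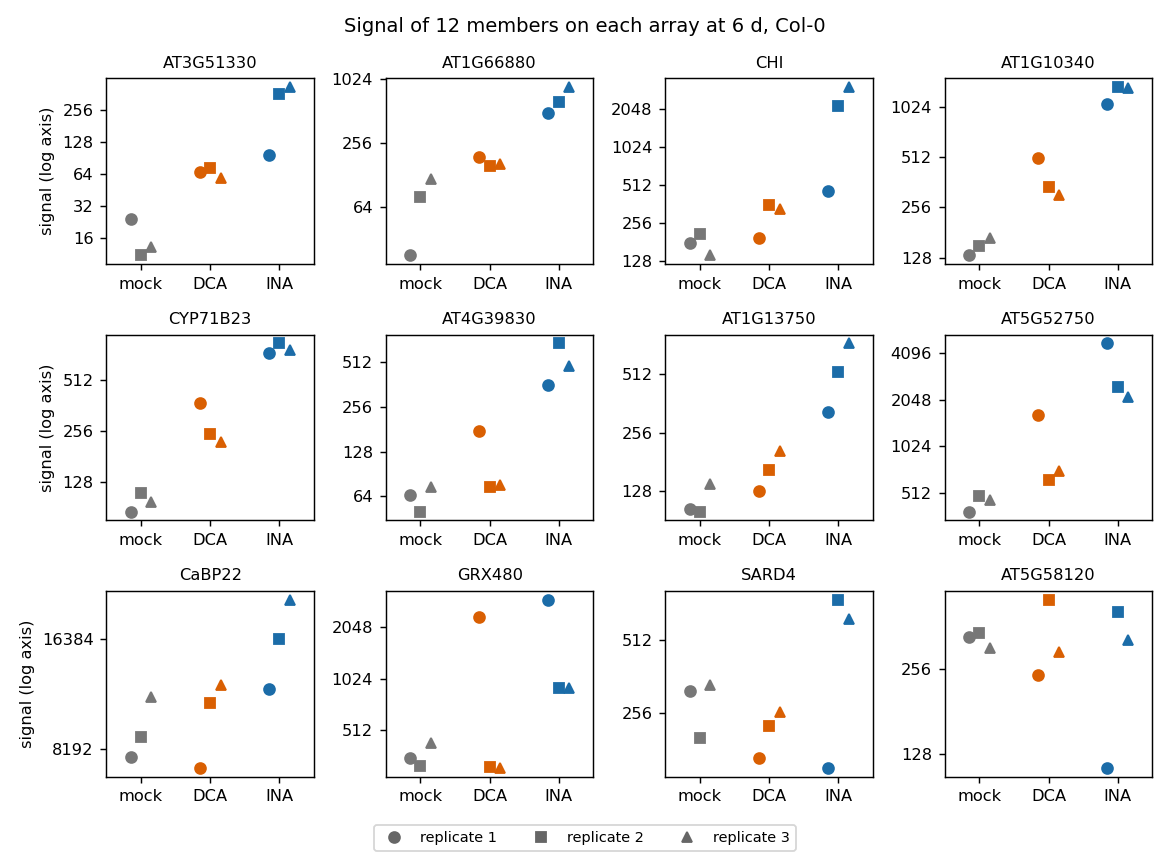
Signal on each of the 9 Col-0 arrays at 6 d (log axis) for 12 members; colour gives the treatment and symbol shape the replicate. AT1G10340, CYP71B23 and AT1G66880 lie in the order mock, DCA, INA without overlap, whereas GRX480 and AT5G52750 have a high DCA replicate 1, and SARD4 and AT5G58120 a low INA replicate 1.

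Proteins of membranes, metal binding and lipid transfer had 6 of 8 probe sets called with INA. AT5G52750 and AT5G52760, which encode heavy-metal-associated domain proteins, are next to each other in the TAIR10.1 gene order, and SARD4 follows after 5 further genes. AT5G52750 read 389, 491 and 461 in mock, 1629, 620 and 710 with DCA, and 4714, 2479 and 2139 with INA. The 3 groups did not overlap, and replicate 1 was the highest of both elicitor groups. Its INA change was 2.72 ± 0.45 (limma adjusted p = 0.0018), and 2.27 without the replicate 1 arrays (adjusted p = 0.0288). AT5G52760 read 389, 463 and 318 in mock, 651, 429 and 402 with DCA, and 1742, 2703 and 2386 with INA. DCA overlapped with mock and INA did not; its INA change of 2.54 ± 0.63 (adjusted p = 0.04) lost its call in each of the 6 fits that left out 1 array.

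AT3G25610, a P-type ATPase gene of the lipid flippase type, read 48.0, 18.4 and 65.5 in mock, 192, 77.2 and 73.9 with DCA, and 266, 240 and 322 with INA. The 3 groups did not overlap. The INA change was 2.83 ± 0.61 (limma adjusted p = 0.0144), lost without INA replicate 3, without mock replicate 2 and without all replicate 1 arrays. AT2G23680 (WCOR413 cold-regulated membrane family), AT1G76970 and AT2G39210 (major facilitator family) rose with INA by 1.90 ± 0.30, 1.76 ± 0.30 and 1.52 ± 0.30. AT1G76970 was not called in a fit of the 6 d arrays alone (adjusted p = 0.0568). AT1G03370, at 0.74 ± 0.23, was not called. Nor was AT4G39670, which read 15.6, 134 and 134 in mock and 139, 239 and 253 with INA. Its mock replicate 1 was far below the others, and its change of 1.64 ± 0.69 was 0.61 without that array and 0.88 without all replicate 1 arrays.

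Enzymes of small molecules and sugars had 4 of 8 probe sets called with INA. CYP71B23, a cytochrome P450 gene, read 85.0, 110 and 97.1 in mock, 372, 245 and 219 with DCA, and 736, 843 and 771 with INA. The 3 groups were widely apart, and the INA arrays lay close together. The changes were 3.02 ± 0.40 with INA (8.08-fold, limma adjusted p = 0.000174) and 1.49 ± 0.40 with DCA (2.81-fold, adjusted p = 0.93), and DCA minus INA was -1.53 (95% interval -2.35 to -0.70, adjusted p = 0.16). AT5G20400, a 2-oxoglutarate-dependent oxygenase gene, rose with INA by 2.04 ± 0.34 (adjusted p = 0.0018) and AT3G09020, a glycosyltransferase gene, by 1.42 ± 0.36 (adjusted p = 0.0438). Of the probe sets of AT5G44820, 1 rose by 1.28 ± 0.28 (adjusted p = 0.0154), a call lost in 5 of the 6 fits without 1 array, and the other had 2.40 ± 0.68 (adjusted p = 0.0836). The methyltransferase gene AT2G32160 was not called, nor were AT3G60420 (0.89) and the exostosin-family gene AT3G57630 (0.67). Without the replicate 1 arrays AT3G60420 was called with INA, at 1.63 (adjusted p = 0.00359).

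AT1G10340, the ankyrin-repeat gene, read 132, 151 and 168 in mock, 502, 338 and 302 with DCA, and 1068, 1343 and 1328 with INA. The 3 groups did not overlap, and within DCA replicate 1 was the highest. It rose 8.28-fold with INA (3.05 ± 0.36, limma adjusted p = 8.04e-05) and had 1.31 ± 0.36 with DCA (adjusted p = 0.93). It was lower with DCA than with INA by 3.34-fold (-1.74 ± 0.36, adjusted p = 0.0498), a call held in 7 of 14 alternatives and lost without DCA replicate 2 or 3, without INA replicate 2 or 3, without all replicate 1 arrays, with no filter and with no intensity trend. AT3G48640, with no role given here, read 51.2, 40.8 and 69.2 in mock, 206, 122 and 90.4 with DCA, and 429, 322 and 252 with INA. The 3 groups did not overlap either, and the changes were 2.64 ± 0.38 with INA (adjusted p = 0.0005) and 1.33 ± 0.38 with DCA (adjusted p = 0.93). AT3G13950 rose with INA by 2.48 ± 0.57 (adjusted p = 0.0228), and AT1G19960, AT1G76960 and the pentatricopeptide-repeat gene AT1G18900 had 1.66, 1.11 and 0.44 and were not called.

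The calls of AT1G10340, AT1G13750, AT1G66880, AT4G39830, AT5G52750, CYP71B23, AT3G51330 and AT3G48640 in INA against mock held under every alternative in which they were tested, including each fit that left out 1 array. The INA calls of AT1G78410, AT3G48080, AT5G39020, AT2G23680, AT2G39210, AT5G20400, AT3G09020 and AT3G13950 held with the replicate block. They were not looked at singly under the other alternatives, so whether they hold without 1 array is not known here. Among the 53 members without an annotation entry, 32 were called with INA, 10 were lower with DCA than with INA, and the log2 changes with INA ran from -0.58 to 4.67. Their median was 1.68 with INA and 0.37 with DCA. The largest INA fold of all members, 25.5, belongs to 1 of these unnamed probe sets. Of the 3 members with several genes, 1 was called with INA.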

How the data were processed

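Each deposited value is a linear intensity (signal) of a probe set, computed by the authors in GCOS according to the submitters' processing notes. The deposited arrays already share a trimmed mean (2% left out at either end), so no further scaling was done. All 24 columns were mapped to samples. Signals under 1 were set to 1 (0 values of the tested probe sets were) and log2 was taken. The 13685 probe sets with a mean log2 signal of at least 6.2 were fitted with limma 3.58.1 in R 4.3.3 (8 group means, eBayes with intensity trend, 16 residual degrees of freedom), tests were two-sided and p-values were adjusted over all 13685; errors of log2 changes are standard errors, each from 3 arrays per group. The script was tested on simulated data. Only probe sets with 1 gene were named, from the platform annotation, with symbols from RefSeq (TAIR10.1). The sources used here name no build for that annotation, and coordinates are left out.

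Members and gene lists were chosen with earlier results of these data known. Genes named were the largest 6 d changes (10 per comparison if called, otherwise 5 uncalled), called DCA-INA differences, the 5 lowest mean 6 d changes, the 10 highest smallest-of-3 changes at 48 h, members on a gene list and those at the threshold; other named members were added to complete their role groups.

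Same-numbered DCA and INA arrays at 6 d deviated together (correlations 0.747, 0.567 and 0.461). Unlike numbers gave 0.424 (DCA replicate 2 with INA replicate 3) and 0.389 (DCA replicate 3 with INA replicate 2), and -0.638 to -0.551 where 1 array was replicate 1. The replicate 1 arrays thus went together, but a pairing of replicates 2 and 3 by number is not settled. The main fit was unpaired, and the block by number is an alternative. Same-numbered arrays of DCA and mock gave -0.015, 0.084 and 0.090, and unlike numbers gave -0.127 to 0.079. For INA and mock, same numbers gave 0.019, 0.139 and 0.340, and unlike numbers gave -0.269 to 0.205. INA replicate 3 had 0.340 with mock replicate 3, but -0.218 and -0.219 with mock replicates 1 and 2. A pairing of INA with mock by number is thus not settled either. Alternatives were quantile normalization, a floor of 16, no filter or a mean of at least 7, the 9 arrays at 6 d alone, no intensity trend, the replicate block and leaving out each array; 2 were chosen after seeing the data (all 6 d replicate 1 arrays removed, and the choice of members without each 48 h array).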

Additional observations from a re-analysis of the deposited data

How the results depend on the processing

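The count of 0 members called with DCA at 6 d, and the signs of the 3 members' medians, were the same under all alternatives tried. Over all probe sets the DCA count went from 0 to 2 with no filter and to 1 without the 6 d replicate 1 arrays. The INA count went from 251 to 634 with the replicate block (412 higher and 222 lower) and to 163 without the replicate 1 arrays, and the DCA against INA count from 28 to 57 without them. Among members the block gave 61 with INA (55 of them among the 55), 16 for DCA below INA (13 among the 13) and 0 with DCA, and among the 44 members with 1 gene it added the INA calls of AT5G03350 (adjusted p = 0.00147), CaBP22 (0.0441) and the other probe set of AT5G44820 (0.0499), and the call of AT5G03350 lower with DCA than INA (0.00915). Without npr1-3 DCA replicate 2 in the choice of members, 61 were left, of which 32 were called with INA and 5 lower with DCA than INA.

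Leaving out 1 array at a time gave 0 to 1 probe sets with DCA (0 members), 122 to 231 with INA (35 to 54 members) and 4 to 112 for DCA against INA (0 to 34 members). Member medians ran from 0.39 to 0.49 with DCA, 1.50 to 1.82 with INA and -1.44 to -1.12 for DCA minus INA. The cause of these shifts was not tested, though each such fit has fewer arrays. With 3 arrays a group, the median 95% interval of a member reaches 0.90 to either side.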
